A study of Danio rerio with 9 samples.

Results

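Described here is a small group of named genes with lower transcript values in amputated than in uncut tails of zebrafish larvae. The group consists of the 9 genes in which every cut array lay below every uncut array and the mean of the cut arrays was at least 0.5 lower on the log2 scale. They were taken from 2663 transcripts with a RefSeq mRNA identifier and a zebrafish gene symbol, out of 37176 transcripts on the array. Solute carrier genes and 6 genes listed by name were left out, and 3 genes that passed on their values were thereby excluded. The 9 genes are *zgc:113307*, *scn4ba*, *hhex*, *dpt*, *hpdb*, *zgc:113223*, *amotl2a*, *fmoda* and *si:ch211-244b2.3*. The genes were thus selected on their log2 values in these same arrays, and the differences between cut and uncut tails are given below as a description and without a test.

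The arrays were hybridized with RNA of the posterior tissue of zebrafish larvae. In the cut group, 5 arrays came from tails amputated behind the notochord at 2 dpf and collected at 3 dpf (1 dpa). The other 4 came from uncut larvae at 3 dpf. The study kept wild type AB and *Tg(TOP:GFP)* fish, and its account of the profiling does not name the strain used. Each sample holds the posterior tissue of many larvae (about 150 tails per condition), and the RNA was amplified before labeling. Whether each array had its own pool of tails is not stated, and the spread between arrays may then be technical. The values measure whole posterior tissue, in which fewer cells of a type and less RNA per cell cannot be told apart.

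The larval tail fin is a fold of epidermis that is supported by collagen-rich matrix and thin mesenchyme, and that grows out around the notochord, muscle, nerves and vessels of the tail. After amputation, epidermal cells cover the wound and a zone of proliferating mesenchymal cells forms beneath them, from which the fin fold is rebuilt. Among the 9 genes, *dpt* and *fmoda* encode secreted matrix proteins. *scn4ba* encodes a subunit of voltage-gated sodium channels, *amotl2a* a scaffold protein of cell junctions, *hhex* a homeobox transcription factor and *hpdb* an enzyme of tyrosine breakdown. The annotation gives no descriptive name to *zgc:113307*, *zgc:113223* and *si:ch211-244b2.3*, and no role is given to them here.

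Of all the arrays, cut replicate 3 stood apart. Its median over 20 lens transcripts was 11.8, against 8.48 in cut replicate 5 and 6.70 to 7.08 in the other 7 arrays. Genes of other tissues of the body varied in their highest value per group. The neuronal gene *slc17a6b* reached 8.35 in cut and 8.24 in uncut tails, and the liver gene *gc* 7.65 and 7.96. Higher maxima in cut than in uncut tails were found for the neuronal gene *syn2a* (10.1 and 8.11) and the exocrine pancreas gene *prss59.1* (11.6 and 9.28). The same held for the photoreceptor gene *sagb* (7.71 and 5.59). Which array held these maxima is not given here. With all 5 cut arrays included, the 4 measured genes of the neuron list each had a higher mean in cut tails. For *stmn2b* this rested on cut replicate 3 alone. Its values in cut replicates 1, 2, 4 and 5 (8.18 to 8.41) lay within or below the uncut range (8.27 to 8.51). The neuronal marker *stmn2b* was 10.4 in cut replicate 3 and 8.18 to 8.51 in the other 8 arrays. The photoreceptor marker *saga* was 7.22 in cut replicate 3 against 5.36 to 5.91. For the 9 genes and the lens list, differences are therefore also given without cut replicate 3 where they depend on it. Those of other single genes are given with all 5 cut arrays only. The labeled tissue could be checked only in part. Of 73 markers of 11 cell types, 13 could be assigned a transcript, and none of the epidermal and notochord markers was among them. The muscle actin gene *acta1b* had log2 values of 11.7 to 13.2 in cut tails, with cut replicate 3 the highest, and 10.9 to 12.8 in uncut tails.

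Across all transcripts, 380 had no overlap and a mean at least 0.5 lower in cut tails, which is 1.02% of the array. Among the named transcripts this was the case for 12, or 0.451%. Without the minimum of 0.5 the groups were separate in this direction for 704 transcripts of the array (1.89%). A further 27 named transcripts had a mean at least 0.5 lower but overlapping groups, so that the condition of no overlap removed 27 of 39. Among named transcripts without overlap, those nearest to the limit on the inner side were *si:ch211-244b2.3* at 0.54, *fmoda* at 0.55 and *amotl2a* at 0.55. On the outer side they were *slc6a7* at 0.495, *btr30* at 0.48 and *wnt4* at 0.47. In a linear model of all 37176 transcripts (limma), 85 transcripts, or 0.229%, were called lower (here and below, a change of 1.5-fold or more with an adjusted p up to 0.1), and 3 of the 9 genes were among them (*zgc:113307*, *scn4ba* and *dpt*). The rule used the same contrast, and nothing is read from this count, which was 0 without uncut replicate 2 and 1 without uncut replicate 4. When any other single array was left out, 2 to 4 of the 9 were called. The study, from the same data, also lists *zgc:113307*, *scn4ba* and *dpt* among its downregulated genes. It lists none of the others of the 9 under these names.

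**Figure D1:**
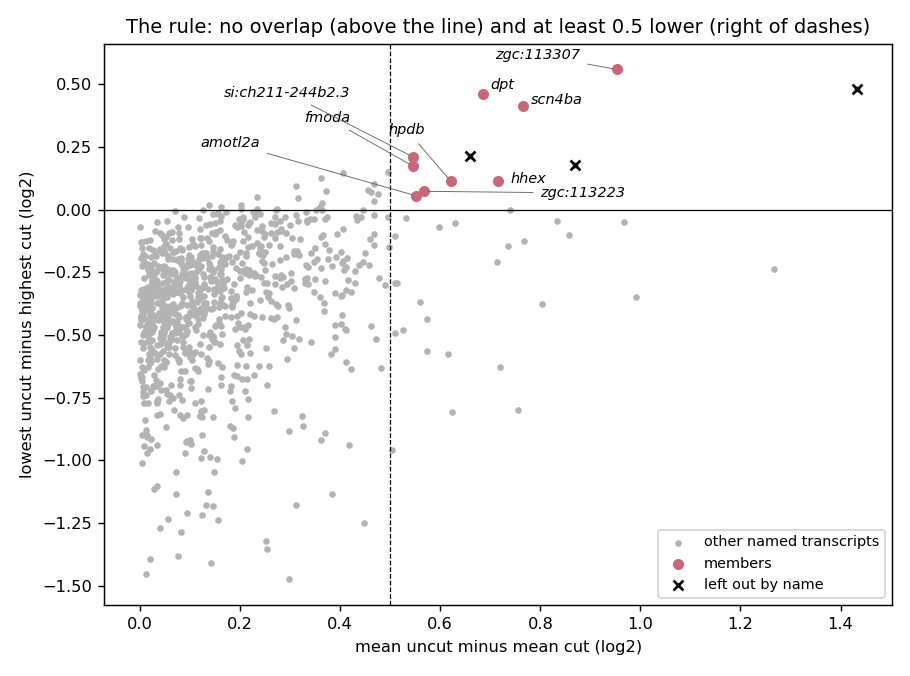
Each point is a named transcript, with the mean of the uncut arrays minus the mean of the cut arrays on the horizontal axis and the lowest uncut minus the highest cut value on the vertical axis, both in log2 units; transcripts with a negative mean difference or a vertical value under the plotted range are not drawn. The 9 genes lie above the horizontal line and to the right of the dashed line, and crosses mark the 3 genes that were left out by name.

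The first pair of genes concerns the matrix. *dpt* (NM_001030085) encodes dermatopontin, which in mammals binds the proteoglycan decorin and promotes the assembly of collagen fibrils. In uncut tails its log2 values were 8.45, 8.32, 8.39 and 8.68 for replicates 1 to 4. The cut arrays gave 7.76, 7.80, 7.78, 7.87 and 7.67 for replicates 1 to 5. The 5 cut arrays thus lay close together, and the lowest uncut array was 0.46 above the highest cut array. The means were 8.46 ± 0.15 (SD, n = 4) and 7.78 ± 0.07 (SD, n = 5), a level 1.61-fold higher in uncut tails. The SD of 0.07 was the lowest of the 9 genes among the cut arrays, where the SDs ran from 0.07 to 0.31. Without cut replicate 3 the difference stayed at 0.69.

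*fmoda* (NM_001030072) encodes fibromodulin, a small leucine-rich proteoglycan that in mammals binds fibrillar collagen and influences the thickness of fibrils. Its log2 values were 15.13, 15.01, 15.11 and 14.91 in uncut tails. Cut tails had 14.74, 14.68, 14.28, 14.35 and 14.43. All 9 values lay in the uppermost part of the scale, on which the highest value of any transcript on any array was 15.99. The uncut arrays differed little among themselves (15.04 ± 0.10, SD, n = 4), while the cut arrays formed a higher pair, replicates 1 and 2, and a lower group of 3 (14.49 ± 0.20, SD, n = 5). The difference of 0.55 became 0.49 without cut replicate 3, just under the limit of the rule.

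*zgc:113307* (NM_001020724) had the largest difference of the 9 genes. Its log2 values were 13.58, 13.21, 13.19 and 13.31 in uncut tails. In the cut group, the values were 12.63, 12.44, 12.05, 12.50 and 12.22. Every uncut array was thus at least 0.56 above every cut array, the widest gap of the 9. The means were 13.32 ± 0.18 (SD, n = 4) and 12.37 ± 0.23 (SD, n = 5), a level 1.94-fold higher in uncut tails. Without cut replicate 3, its lowest array, the difference was 0.87.

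The position of this gene was not used by the rule, but gene order was examined after the genes had been selected. In the RefSeq gene order of the assembly GRCz12tu, *zgc:113307* is the protein-coding gene next to *fmoda*, and it lies between *fmoda* and *prelp*, which in mammals encodes another small leucine-rich proteoglycan. No transcript could be assigned to *prelp*. Of 460 pairs of adjacent genes that both have a named transcript, this was the only pair in which both genes met the numerical conditions. Both genes were highest in uncut replicate 1 among the uncut arrays, and in cut replicate 1 among the cut arrays, and both were lowest in cut replicate 3. These positions were not particular to the pair. *scn4ba* shared both highest arrays, and *hpdb* was also highest in cut replicate 1 and lowest in cut replicate 3 among the cut arrays. Over all transcripts, the shares with these positions were 32.6%, 22.8% and 24.3%, in that order. *il19l*, the gene beyond *prelp*, had a log2 difference, cut minus uncut, of -0.07 (SE 0.15). The 4 further genes directly beside one of the 9 and with a named transcript (*reep6*, *fh*, *scyl2* and *zbtb11*) had differences between 0.00 and 0.11. These genes border *zgc:113223*, *hhex*, *si:ch211-244b2.3* and *dpt*, and none of the 4 was lower in cut tails.

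Of 82 genes on a list of secreted matrix proteins, 8 had a named transcript, and *dpt* and *fmoda* are among them. In the model of all transcripts, 1 of the 8 (*dpt*) was called lower, where 0.229% of all transcripts were called lower. None was called higher by limma, where 0.468% of all transcripts were called higher. At an unadjusted p under 0.05 there were 3 lower and 2 higher, and the 3 include the selected *dpt* and *fmoda*. Because *dpt* and *fmoda* were selected for low values in cut tails, the list is described without them. The median log2 difference of the remaining 6 genes was 0.03, with 3 of them below 0, and that of all transcripts was 0.04. Without uncut replicate 1 the median of the 6 was -0.10. *matn3a*, a matrilin gene, *fbln1*, a fibulin gene, and *mfap2*, a microfibril gene, had differences of -0.28 (SE 0.12), -0.17 (SE 0.13) and -0.10 (SE 0.14), with overlap between the groups. The laminin genes *lama1* and *lamb1a*, whose products form basement membranes, had differences of 0.32 (SE 0.14) and 0.49 (SE 0.18), and *mgp*, which encodes matrix Gla protein, had 0.17 (SE 0.27). The measured matrix genes thus lay on both sides of 0, and those other than *dpt* were not called.

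**Figure D2:**
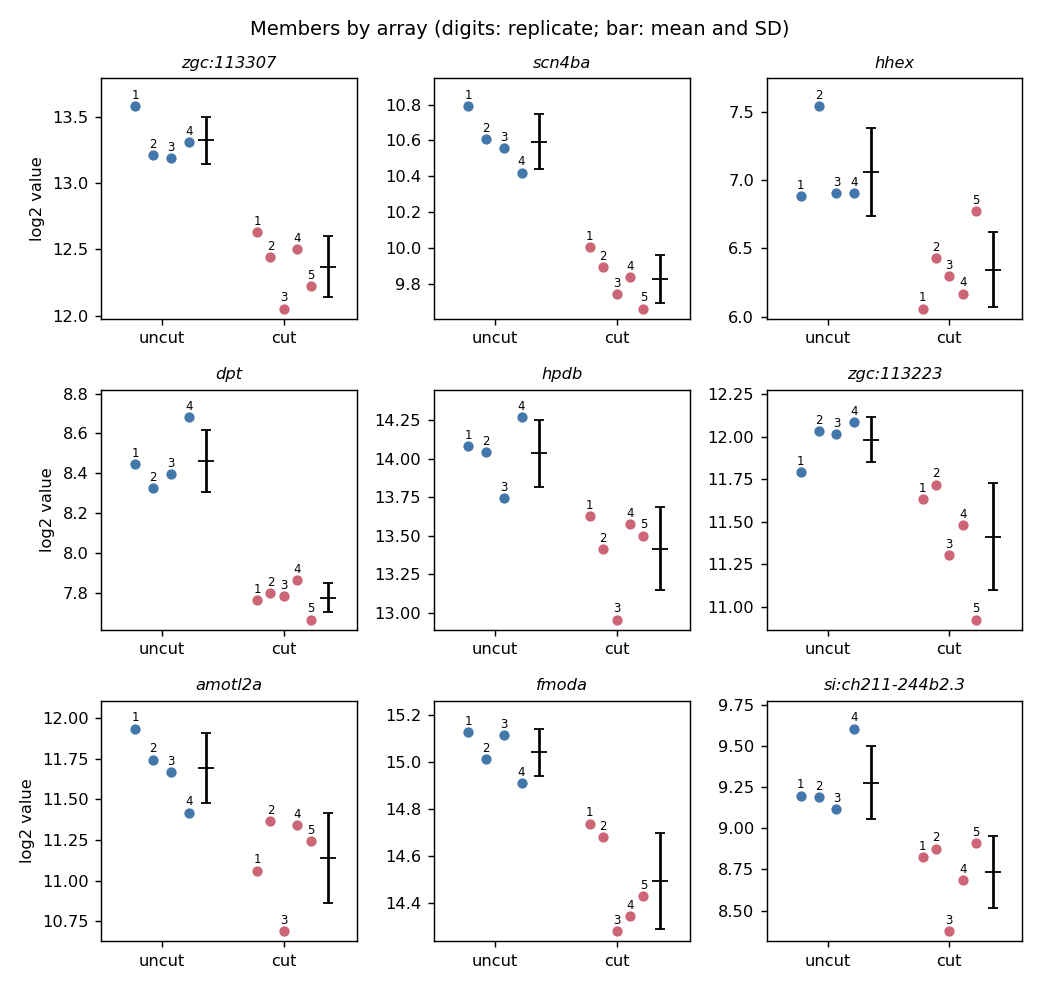
The 9 panels give the log2 value of each gene in the 4 uncut arrays (blue) and the 5 cut arrays (red), with digits for the replicate and black bars for the mean and SD of the group; each panel has its own vertical range. In every panel the red points lie below the blue points, which the rule required, and the gap is widest for *zgc:113307* (0.56) and narrowest for *amotl2a* (0.05).

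Among membrane and junction proteins, *scn4ba* (NM_001077570) encodes a beta subunit of voltage-gated sodium channels. Such subunits are small membrane proteins with an immunoglobulin domain that modify the gating of the pore-forming alpha subunit. The log2 values of *scn4ba* were 10.79, 10.61, 10.56 and 10.42 in uncut tails. The corresponding values in cut tails were 10.01, 9.89, 9.74, 9.84 and 9.66. The groups were separated by 0.41, and the spread was similar in both (10.59 ± 0.15, SD, n = 4, and 9.83 ± 0.13, SD, n = 5). The level was 1.70-fold higher in uncut tails, and the difference of 0.77 became 0.74 without cut replicate 3.

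Other sodium channel subunits did not share this pattern. *scn3b*, which encodes another beta subunit, had log2 values of 8.36 to 9.20 in cut tails and 7.84 to 8.23 in uncut tails. Every cut array thus lay above every uncut array, the reverse of *scn4ba*, with a difference of 0.59 (SE 0.19) that was not called. The alpha subunit genes *scn1lab*, *scn4ab*, *scn5lab* and *scn12aa* had differences of 0.03 to 0.24, with overlapping groups. This set of subunits was assembled after the values had been seen. *scn2b*, a further beta subunit gene, is the direct neighbor of *scn4ba* in the gene order, but no transcript could be assigned to it. On the longer list of ion channels, 11 of 62 genes had a named transcript. Of these, 1 (*scn4ba*) was called lower by limma and 0 higher, where 0.229% and 0.468% of all transcripts were called. At an unadjusted p under 0.05 there were 1 lower, again *scn4ba*, and 1 higher. Since *scn4ba* was selected for low values in cut tails, nothing is read from the lower counts. The 10 genes other than *scn4ba* had differences above 0, but 2 of them were below 0 with quantile normalization or with centered arrays. With array weights, without uncut replicate 1 or without cut replicates 3 and 5, 3 were below 0. The highest was that of *trpv6*, an epithelial calcium channel gene, at 0.65. The median of the 10 was 0.23, but 0.14 without uncut replicate 1 and 0.35 without cut replicate 1.

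*amotl2a* (NM_001080177) encodes angiomotin-like 2a, a scaffold of cell junctions that binds Yap and limits its activity in the Hippo pathway. Its log2 values were 11.94, 11.74, 11.67 and 11.42 in uncut tails. After amputation they were 11.06, 11.36, 10.69, 11.34 and 11.24. Uncut replicate 4 and cut replicates 2 and 4 almost touched, with a gap of 0.05, the narrowest of the 9 genes. The means were 11.69 ± 0.21 (SD, n = 4) and 11.14 ± 0.28 (SD, n = 5), and the difference of 0.55 became 0.44 without cut replicate 3, under the limit of the rule. The paralog *amotl2b*, examined after the values had been seen, had log2 values of 9.28 to 9.93 in cut tails and 9.91 to 10.33 in uncut tails. Its difference was -0.47 (SE 0.15), so that it met neither condition of the rule, and it was not called.

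**Figure D3:**
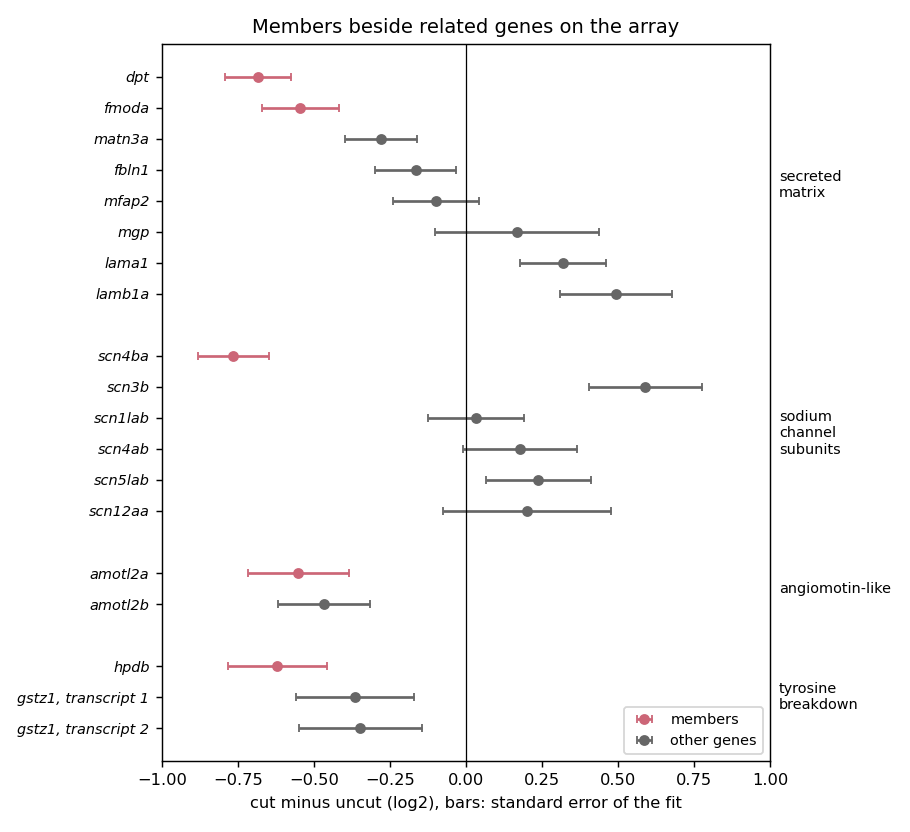
Log2 difference, cut minus uncut, of members (red) and related genes with a named transcript (gray), with bars for the standard error from the model of all transcripts. *dpt* and *fmoda* lie at the negative end of the matrix genes, *scn4ba* is the 1 negative value of 6 sodium channel subunits, and *amotl2b* lies near *amotl2a*.

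*hhex* (NM_130934) encodes a homeobox transcription factor that is known in vertebrates for its roles in the liver, pancreas, thyroid and vascular endothelium. Its log2 values were 6.89, 7.54, 6.90 and 6.91 in uncut tails. The 5 cut values were 6.06, 6.43, 6.30, 6.17 and 6.77. Uncut replicate 2 stood above the other uncut arrays, which lay between 6.89 and 6.91, and cut replicate 5 came within 0.11 of the lowest uncut array. The means were 7.06 ± 0.32 (SD, n = 4) and 6.34 ± 0.28 (SD, n = 5), a level 1.64-fold higher in uncut tails. Without uncut replicate 2 the difference was 0.55. All 9 values lay below the medians of the arrays (8.54 to 8.63). With an offset of 50 added to the unlogged values, the difference was 0.48, under the limit of the rule.

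Markers of cell types in which *hhex* is known were examined beside it. For endothelium, 2 of 6 markers were measured, and their mean was 7.58 to 7.99 in cut tails and 8.10 to 8.47 in uncut tails. Most of this came from *egfl7*, an endothelial secreted factor, at -0.74 (SE 0.21, not called), while *cdh5*, which encodes the endothelial cadherin, was at -0.10 (SE 0.11). The highest cut and the lowest uncut value of *egfl7* were both 9.20, so that it only just missed the condition of no overlap. It met the rule with quantile normalization or with centered arrays. The study itself lists *egfl7* among its downregulated genes at the same thresholds, without naming the transcript. On the longer list of endothelial genes, 6 of 57 were measured and the median was 0.03, which changed sign in 5 of 13 alternatives. None of the 6 was called by limma, with 1 lower and 0 higher at an unadjusted p under 0.05. For liver, 1 of 21 listed genes was measured (*gc*, a plasma protein gene, at -0.09, SE 0.28), and for the exocrine pancreas 1 of 20 (*prss59.1*, a trypsin gene, at 0.60, SE 0.51). The part of these cell types in the difference of *hhex* was not tested.

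*hpdb* (NM_001003742) encodes a 4-hydroxyphenylpyruvate dioxygenase, the enzyme that forms homogentisate in the breakdown of tyrosine. Its log2 values were 14.08, 14.04, 13.74 and 14.27 in uncut tails. Cut replicates 1 to 5 had 13.63, 13.41, 12.95, 13.57 and 13.50. Cut replicate 3 lay far below the other cut arrays, and uncut replicate 3 was the lowest uncut array, 0.11 above the highest cut array. The means were 14.03 ± 0.22 (SD, n = 4) and 13.41 ± 0.27 (SD, n = 5), a level 1.54-fold higher in uncut tails. The difference of 0.62 became 0.51 without cut replicate 3. Of the same pathway, *gstz1*, which encodes the isomerase of a later step, had 2 named transcripts. Their differences were -0.36 (SE 0.19) and -0.35 (SE 0.20), both with overlap between the groups and not called. This gene was chosen after the values had been seen.

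The remaining genes have no descriptive name. *zgc:113223* (NM_001013551) had log2 values of 11.79, 12.03, 12.01 and 12.09 in uncut tails. In the cut arrays the gene had 11.63, 11.72, 11.31, 11.48 and 10.93. The cut arrays spread more widely than those of any other member (SD 0.31, against 0.13 in uncut tails), and cut replicate 5 was the lowest by a wide margin. The difference of 0.57 became 0.54 without cut replicate 3 and 0.45 without cut replicate 5, the latter under the limit of the rule, and the gap between the groups was 0.07.

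*si:ch211-244b2.3* (NM_001082810) had log2 values of 9.20, 9.19, 9.12 and 9.61 in uncut tails. In cut tails they were 8.82, 8.88, 8.38, 8.68 and 8.91. Uncut replicate 4 stood above the other uncut arrays and cut replicate 3 below the other cut arrays, and the gap between the groups was 0.21. The difference of 0.54, the smallest of the 9, became 0.46 without cut replicate 3 and 0.44 without uncut replicate 4. With the offset of 50 it was 0.496, also under the limit of the rule.

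Together, the 9 genes had log2 differences of 0.54 to 0.95 with a median of 0.62, that is, levels 1.46-fold to 1.94-fold higher in uncut tails. In 5 of the 9 the difference reached 1.5-fold. In 5 of the 9 the gap between the groups was under 0.2. The median difference of the other 371 transcripts that met the numerical conditions was 0.71. The median SD of the 9 was 0.23 among cut and 0.18 among uncut arrays, against 0.25 and 0.22 over all transcripts. The condition of no overlap favors genes with a small SD, so nothing is read from this comparison.

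Among the cut arrays, replicate 3 was the lowest in 5 of the 9 genes (*zgc:113307*, *hpdb*, *amotl2a*, *fmoda* and *si:ch211-244b2.3*) and the highest in 0. Replicate 5 was the lowest in 3 but the highest in 2 (*hhex* and *si:ch211-244b2.3*), and replicate 1 was the lowest in 1. Over all transcripts, replicate 3 was lowest in 24.3% and replicate 5 in 19.9%. Among the other 371 transcripts that met the conditions, replicate 3 was lowest in 95, replicate 4 in 117 and replicate 5 in 126. In replicates 3 and 5, which were lowest in 8 of the 9 genes, the lens transcripts were also highest (and *stmn2b* in replicate 3), and the part of this in the differences was not tested. Without both arrays, the 9 differences ran from 0.37 to 0.84 with a median of 0.50, and 4 of the 9 genes (*zgc:113307*, *scn4ba*, *hhex* and *dpt*) still met the rule.

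**Figure D4:**
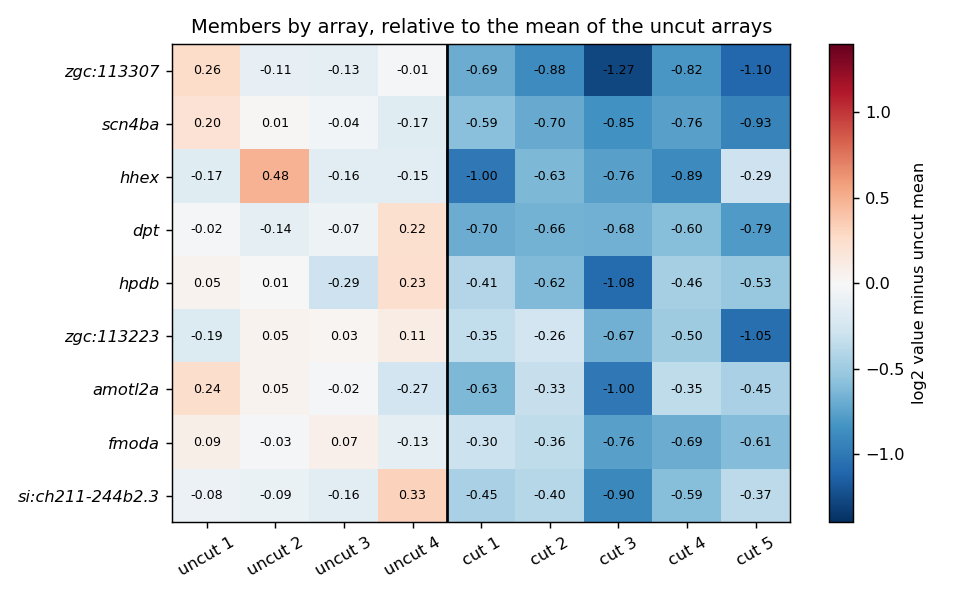
Rows are the 9 genes and columns the 9 arrays, and each cell gives the log2 value minus the mean of the uncut arrays (blue for lower, red for higher). All cut cells are negative, as the rule required; the lowest cell of the map is *zgc:113307* in cut replicate 3, and *dpt* is the most even row among the cut arrays.

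Beyond matrix and ion channel genes, 10 further lists had at least 5 measured transcripts. None of the 9 genes is on these lists, and limma called 0 of their 83 transcripts lower, against 0.229% of all transcripts. At an unadjusted p under 0.05 there were 2 lower and 6 higher. In 2 of these lists, 1 transcript was called higher (2 of 83, against 0.468% of all transcripts), *tnni1b* of skeletal muscle at 0.67 (SE 0.14) and *cfbl*, a complement gene on the leukocyte list, at 1.41 (SE 0.27), whereas 8 lists had no call. The lowest median of these lists was that of epidermal genes, -0.19 over 5 transcripts, 4 of which were below 0. The highest was that of lens genes, 0.78, which was 0.19 without cut replicate 3 and -0.03 without cut replicates 3 and 5. The medians of the muscle and leukocyte lists were 0.26 and 0.28. On the shorter lists, 1 transcript was called, *htra3a* of the matrix proteases, higher at 0.96 (SE 0.19). Of 6 leukocyte markers 2 were measured (*spi1b*, a transcription factor gene, and *cxcr3.2*, a chemokine receptor gene). Their mean was 7.98 to 9.47 in cut tails and 6.98 to 7.61 in uncut tails, and neither gene was called. On the leukocyte list, the transcripts other than these 2 and *cfbl* had overlapping groups, with differences from -0.23 (a transcript of *lck*) to 0.32 (*csf1ra*). The markers *spi1b* and *cxcr3.2* were thus higher in every cut array in which the 9 genes were lower, and their part in the differences of the 9 genes was not tested.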

How the data were processed

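NimbleGen 1-color arrays were scanned and compiled with NimbleGen software, and the authors applied RMA background correction and quartile normalization in ArrayStar. The deposited values, 1 per transcript and array, were taken as log2 from their range and used unchanged. How probes were summarized is not given in the sources used here, and no depth applies to arrays, whose number limits the precision. Of 3055 RefSeq transcripts, 2663 matched a symbol in the RefSeq annotation of GRCz12tu, which was used for names and gene order only. Other identifiers were not named. All 37176 transcripts were fitted in R 4.3.3 with limma 3.58.1 (condition only, Benjamini-Hochberg adjustment), and the model was tested on simulated data. Arrays were treated as unpaired. The genes, the 19 gene lists and the markers were chosen with earlier results of these data known. All 9 members are named, with 3 genes on either side of the limit and the called genes of each list. Related genes and array weights for single genes were added after values had been seen. Alternatives were a replicate block, other scalings, filters, variance models, thresholds and arrays left out.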

Additional observations from a re-analysis of the deposited data

Results flagged for a closer look

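Each of the 18 groups of values (9 genes, cut and uncut) was checked for an array far from the rest with Dixon's test, and 2 held such an array, where chance gives about 1 in 20 groups, or 0.9. For *hhex*, uncut replicate 2 had a value of 7.54, while the remaining uncut values were 6.89 to 6.91. For *si:ch211-244b2.3*, uncut replicate 4 had a value of 9.61, while the remaining uncut values were 9.12 to 9.20.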

How the results depend on the processing

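The differences of the 9 genes kept their sign in all 126 pairs of gene and alternative. Each moved by less than 1 SD between replicates, taken as the larger of the cut and uncut SDs. For arrays left out, the offset of 50 and array weights, however, the absence of overlap fixed the sign in advance. Centering could not reverse it either, since the array medians differed little (8.54 to 8.63) beside differences of 0.54 or more. Only for quantile normalization was the sign not settled in this way. Dropping a single array also cannot move the mean of its group by 1 SD of that group, so the single-array alternatives could not fail. Of all named genes, 9 met the rule, but 18 after each array was centered on its median, 15 at a minimum of 0.4 and 2 at a minimum of 0.75. Leaving out single arrays gave 7 (without cut replicate 3) to 28 genes (without uncut replicate 3), with 14, 16 and 20 for uncut replicate 2, cut replicate 1 and cut replicate 2. Fewer arrays loosen the condition of no overlap by construction. Centering kept all 9 genes, and quantile normalization lost *fmoda*. Of the 9, limma called 3 lower. Single arrays left out gave 0 (without uncut replicate 2) to 4, while the replicate block gave 5 and array weights 6. No gene of the 9 was called when cut replicates 3 and 5 were dropped (0, with 9 at an unadjusted p under 0.05) or when the fold had to reach 2 (0). The rule selected the 9 for separate groups, which stay separate when arrays are dropped, so nothing is read from their unadjusted p. Over all transcripts, 85 were called lower and 174 higher. These became 297 and 377 under the replicate block, 1257 and 1371 under array weights, 29 and 90 when the adjusted p was limited to 0.05, 32 and 96 when the fold had to reach 2, and 17 and 97 when cut replicates 3 and 5 were dropped. Dropping single arrays gave 7 (without uncut replicate 4) to 544 lower (without uncut replicate 3) and 47 (without uncut replicate 2 or 4) to 326 higher (without uncut replicate 3). The lower count was 143 among the brighter 50% of transcripts, and centering gave 109 lower and 142 higher. Stricter thresholds call fewer by construction, and elsewhere the cause was not tested. The replicate numbers were not taken as pairs, since no source says that they pair samples and 1 of the 4 correlations between deviations of same-numbered arrays was under 0.1 (0.58, 0.09, 0.25 and 0.32). In 7 of 8 arrays the best match had the same number, a hint from the data only. Of 12 list medians, 4 changed sign in an alternative. Without the selected genes, a choice made after seeing the data, the median of the matrix genes also changed sign (-0.10 to 0.16). Planned descriptions of promoters and proteins were not run.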
